A study of Rattus norvegicus with 9 samples.

Results

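The G2/M and mitosis genes described here are 34 genes named in advance by symbol, of which 33 were found among the 22050 genes of the deposited table. Ccnb2 was not analysed here. The 9 RNA-seq libraries were made from NRK-49F, a rat kidney fibroblast cell line, and all cultures received TGF-β1, a cytokine that turns fibroblasts into matrix-producing cells. Beside TGF-β1, the cells received vehicle, YEXX-2A or YWCH-4A, with 3 libraries for each of these 3 groups, all of wild-type genotype per the labels. The TGF-β1 incubation is labelled as 48 h. The labels give no dose or timing of either compound, so matched doses cannot be assumed between them, and the compounds are known here by code name alone. The design text calls the replicates biological without saying how separate the cultures were, and each p-value reflects only how much these libraries vary. Libraries of cells that had no TGF-β1 were not analysed here.

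Cells that enter mitosis switch on a shared set of genes late in the cell cycle. Cyclin A and cyclin B activate the kinase Cdk1, chromosomes are compacted by condensin and untangled by topoisomerase II, kinetochores attach them to the spindle, and the anaphase-promoting complex then destroys cyclins and other proteins so that the cell can divide. Many promoters of such genes carry CCAAT boxes, bound by NF-Y, and a cell cycle homology region whose core is TTTGAA, through which the DREAM and MuvB complexes repress them in resting cells and B-Myb and FoxM1 activate them in G2. In bulk RNA, a smaller share of cells in G2 or mitosis and less RNA per such cell cannot be told apart.

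Promoter sequences are shown first because these elements were more frequent in this set than in all promoters, though not present in every member: the window of Bub1, of Aurka and of both Kif2c promoters held neither. RefSeq promoters of build GRCr8 were matched for 28 of the 33 genes, with 29 promoters in all because Kif2c has a pair. In the 300 bases from 250 before to 50 after the start, searched on both strands, TTTGAA was present in 20 of 29 promoters (69.0%) against 18.3% of all 33469 promoters of that length. At least 2 copies of CCAAT were present in 13 of 29 (44.8%) against 11.2%, and both features in 11 of 29 (37.9%) against 2.1%. The motifs can overlap, as in TTTGAATTGG of the Mki67 promoter. Among the promoters of the 14 genes that rose with YEXX-2A, described below, 10 held TTTGAA (71.4%) and 6 held at least 2 CCAAT (42.9%), against 10 (66.7%) and 7 (46.7%) of the other 15. The presence of these letters did not separate the genes that rose from the rest. A match is a description of the sequence and not of a bound site. The 250 bases before the start of 2 genes that rose with YEXX-2A (Ncapg and Top2a) and of 2 that were not called (Cdk1 and Cdc20) follow, 5′ to 3′ on the gene's strand, with TTTGAA and CCAAT on either strand in capitals.
Ncapg, chr14:69645446-69645695, minus strand: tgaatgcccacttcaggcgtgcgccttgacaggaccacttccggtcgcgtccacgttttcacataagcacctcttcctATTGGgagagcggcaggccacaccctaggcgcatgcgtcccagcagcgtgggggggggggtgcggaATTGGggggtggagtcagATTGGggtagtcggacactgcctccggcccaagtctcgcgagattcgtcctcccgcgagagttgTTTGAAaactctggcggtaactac
Top2a, chr10:84473094-84473343, minus strand: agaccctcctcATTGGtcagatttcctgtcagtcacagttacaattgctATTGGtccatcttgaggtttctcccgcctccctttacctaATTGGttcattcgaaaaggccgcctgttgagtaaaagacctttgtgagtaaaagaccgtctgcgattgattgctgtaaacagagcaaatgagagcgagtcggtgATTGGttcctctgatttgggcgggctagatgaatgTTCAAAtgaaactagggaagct
Cdk1, chr20:19265043-19265292, plus strand: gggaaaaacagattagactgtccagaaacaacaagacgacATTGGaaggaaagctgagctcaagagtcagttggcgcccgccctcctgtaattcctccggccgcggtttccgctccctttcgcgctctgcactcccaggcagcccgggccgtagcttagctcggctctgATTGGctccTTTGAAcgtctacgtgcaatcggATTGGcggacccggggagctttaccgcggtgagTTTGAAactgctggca
Cdc20, chr5:137255800-137256049, minus strand: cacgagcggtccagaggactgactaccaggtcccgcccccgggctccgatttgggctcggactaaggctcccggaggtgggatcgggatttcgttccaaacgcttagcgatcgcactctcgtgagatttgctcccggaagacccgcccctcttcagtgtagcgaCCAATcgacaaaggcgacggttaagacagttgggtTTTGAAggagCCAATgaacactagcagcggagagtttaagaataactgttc

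Library totals ran from 13675880 to 21923706 estimated counts. Vehicle replicate 2 stood apart: the biological coefficient of variation was 16.7% among the vehicle libraries and 4.7% without it, against 7.4% among YEXX-2A and 3.7% among YWCH-4A libraries. Results are therefore given with and without vehicle replicate 2. Fibroblast transcripts Col1a1, Fn1 and Vim were abundant, while the fibroblast markers Thy1 and Dcn stayed at or under 0.888 and 0.25 CPM (counts scaled to library size with TMM factors). Markers of other kidney cell types were mostly near 0, with Epcam, Krt18, Umod and Slc12a1 at 0 in every library and the leukocyte gene Ptprc at or under 0.091 CPM. The exceptions moved with the compounds. Krt8, at up to 2200 CPM, was at -0.32 with YEXX-2A and -1.04 with YWCH-4A on the log2 scale, Aqp1, at up to 95.9 CPM, at -1.21 and -2.14, Cd68, at up to 73.5 CPM, at -0.33 and 0.37, and the endothelial gene Flt1 at 0.54 and 0.84, all called in edgeR. The summed fibroblast markers ran from 69630 to 88960 CPM with vehicle, from 57690 to 62500 CPM with YEXX-2A and from 36860 to 40160 CPM with YWCH-4A. With YWCH-4A Col1a1 (-2.32), Col3a1 (-3.72) and Vim (-1.10) fell, Pdgfra rose (0.69) and Fn1 (-0.02) was not called, and the part of these shifts in the results below was not tested.

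All 33 genes passed the filter on low counts. Per unit of length, Cdk1, the kinase at the centre of mitotic entry, had the highest level, with 104.3, 93.51 and 108.4 FPKM (the authors' length-scaled and depth-scaled value) in vehicle replicates 1 to 3. It was followed over all 9 libraries by Ube2c, the ubiquitin-conjugating enzyme of the anaphase-promoting complex (mean 70.5 FPKM), and by Kif20a, a kinesin of cytokinesis (mean 63.0 FPKM). The lowest levels were those of Ncapg (mean 2.93 FPKM), Cenpe (mean 1.80 FPKM) and Cenpf (mean 1.42 FPKM), at percentiles 20.9, 14.6 and 12.1 of all tested genes. A condensin subunit and both large kinetochore proteins were thus the scarcest of these transcripts. The FPKM of the 33 genes summed to 875.1, 741.9 and 868.2 in the vehicle libraries, to 957.1, 987.8 and 915.6 in the YEXX-2A libraries and to 1009, 993.9 and 951.6 in the YWCH-4A libraries. The lowest sum was that of vehicle replicate 2. These sums are not compared between groups, because on log2(FPKM + 1) the median of all tested genes itself lay 0.18 above vehicle with YWCH-4A and 0.07 above it with YEXX-2A.

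**Figure D1:**
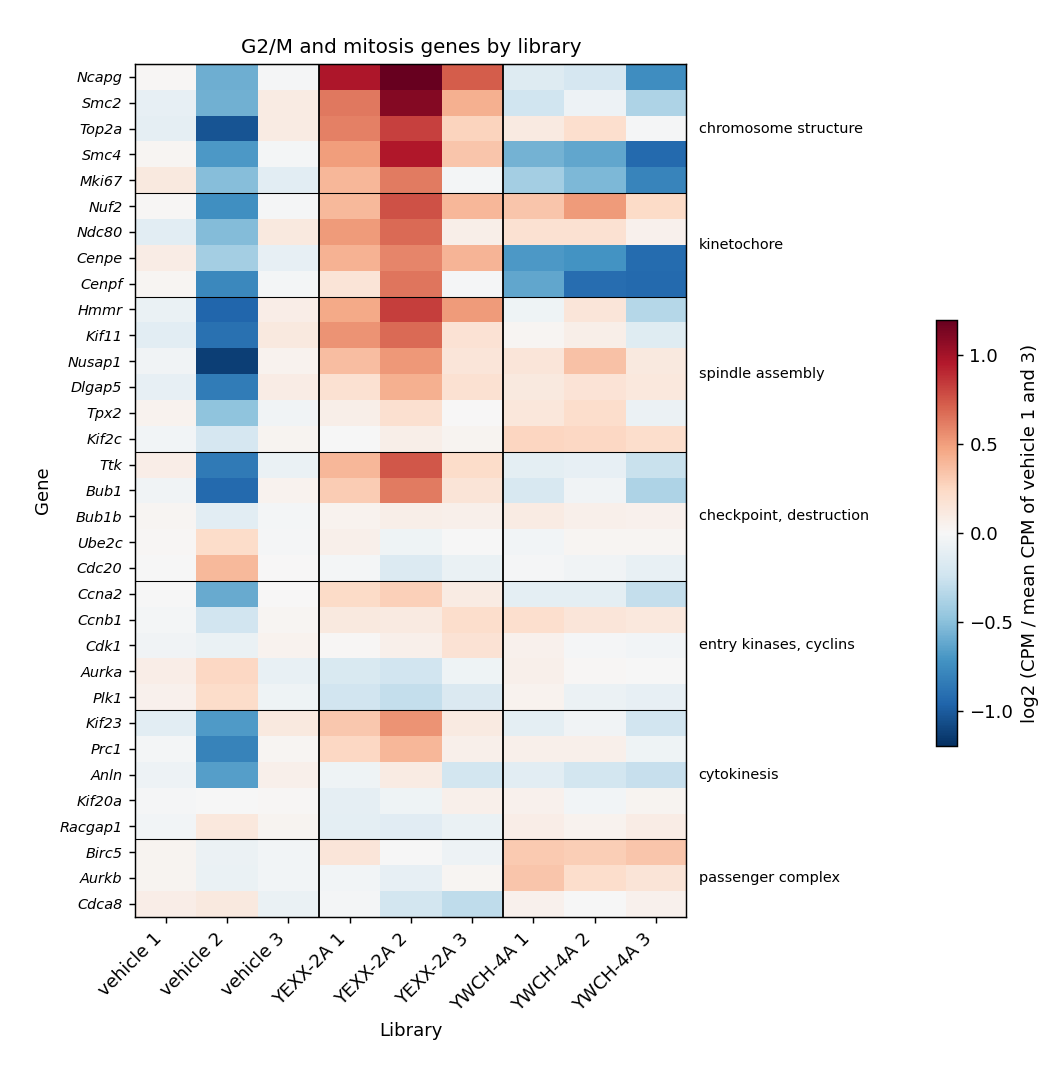
Log2 ratio of CPM to the mean of vehicle replicates 1 and 3 for 33 genes (rows, grouped by role) in 9 libraries (columns); blue is lower, red is higher, and the scale ends at 1.2 on either side. Vehicle 2 is blue in most rows, the chromosome structure genes are red in YEXX-2A except Mki67 in replicate 3 (114.8 CPM against a vehicle 1 and 3 mean of 116.7 CPM), and the passenger complex rows Birc5 and Aurkb are pale red in YWCH-4A.

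Vehicle replicate 2 had the lowest value of all 9 libraries for 20 of the 33 genes and the lowest of the vehicle group for 26. Top2a, which untangles sister DNA, was at 70.02 CPM in vehicle replicate 2 against 133.6 and 153.7 CPM in replicates 1 and 3, a ratio to their mean of 0.488. The ratio was 0.457 for Nusap1, a microtubule-bundling spindle protein, and 0.524 for the checkpoint kinase Bub1. Not all mitotic transcripts were low in that library. Cdc20, the activator of the anaphase-promoting complex, was at 93.71 CPM against 71.56 and 71.65 CPM, a ratio of 1.31, and the ratios of Aurka, Ube2c and Plk1 were 1.19, 1.17 and 1.17. The ratio was below 1 for other mitotic kinases, with 0.948 for Aurkb, 0.946 for Cdk1 and 0.555 for Ttk.

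With YEXX-2A, transcripts of chromosome structure, of most kinetochore genes and of some spindle genes were higher than with vehicle, while the passenger complex and most entry kinases were not called. In the edgeR quasi-likelihood test at an adjusted p under 0.05, 14 of 33 genes rose and 1 fell (42.4% and 3.03%), against 17.6% and 18.5% of all 11473 tested genes in these directions. The median log2 fold change was 0.46, against 0.01 over all tested genes. Without vehicle replicate 2, 15 rose and 1 fell (17.5% and 17.6% of all tested genes), 11 of the 14 rises were kept, and the median was 0.25. All 3 YEXX-2A libraries lay above all vehicle libraries for 16 genes and below them for 3, against 25.3% and 26.3% of all tested genes.

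All 5 chromosome structure genes rose with YEXX-2A, and 3 of the 5 without vehicle replicate 2. Ncapg, a subunit of condensin I, had 8.14, 5.39 and 8.02 CPM with vehicle and 15.8, 18.5 and 13.4 CPM with YEXX-2A. The groups did not overlap, and the log2 fold change was 1.15 (SE 0.20, edgeR adjusted p = 0.00435; 0.98 without vehicle replicate 2, adjusted p = 0.000423). Smc2, a core ATPase of both condensins, had 20.2, 14.6 and 23.2 CPM with vehicle and 33.7, 46.6 and 29.2 CPM with YEXX-2A. Its log2 fold change was 0.92 (SE 0.20, edgeR adjusted p = 0.00958; 0.76 without vehicle replicate 2, adjusted p = 0.0257). Smc4, its partner ATPase, had 22.4, 13.7 and 21.7 CPM with vehicle and 31.2, 42.9 and 27.7 CPM with YEXX-2A, a log2 fold change of 0.81 (SE 0.20, edgeR adjusted p = 0.0163; 0.63 without vehicle replicate 2, adjusted p = 0.0310). Ncapg, Smc2 and Smc4 were thus higher in every YEXX-2A library than in any vehicle library, with the highest value of each in YEXX-2A replicate 2. Condensin subunit genes outside the set, looked up after their values were seen, did not all follow: Ncapg2 rose (0.53, edgeR adjusted p = 0.0331), Ncapd2 (-0.36, edgeR adjusted p = 0.0128) and Ncaph2 (-0.34, edgeR adjusted p = 0.0262) fell, and Ncaph (0.06) and Ncapd3 (0.18) were not called. Top2a had 218.6, 252.9 and 173.3 CPM with YEXX-2A, all above the vehicle libraries (log2 fold change 0.85, SE 0.23, edgeR adjusted p = 0.0219), and its value without vehicle replicate 2 was 0.59 with an edgeR adjusted p = 0.0503, just short of a call. Mki67, which encodes the proliferation marker Ki-67 that coats mitotic chromosomes, had 126.8, 81.9 and 106.6 CPM with vehicle and 154.3, 179.7 and 114.8 CPM with YEXX-2A. The lowest YEXX-2A library fell below the highest vehicle library. The call (log2 fold change 0.51, SE 0.18, edgeR adjusted p = 0.0492) did not hold in 7 of the 9 fits that left out a library. Among them was the fit without vehicle replicate 2 (0.36, adjusted p = 0.268).

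At the kinetochore 3 of 4 genes rose. Nuf2, a subunit of the microtubule-binding Ndc80 complex, had 18.8, 11.1 and 18.3 CPM with vehicle and 24.2, 31.5 and 24.4 CPM with YEXX-2A, with no overlap (log2 fold change 0.73, SE 0.19, edgeR adjusted p = 0.0172; 0.53 without vehicle replicate 2, adjusted p = 0.00373). Its partner Ndc80 rose by 0.60 and Cenpe, the kinetochore kinesin, by 0.59 on the log2 scale, and both calls held without vehicle replicate 2. The groups overlapped for Ndc80 and not for Cenpe. Of the 9 fits that left out a library, 3 lost the call of Ndc80 and 1 that of Cenpe. Cenpf was at 0.50 and was not called (edgeR adjusted p = 0.0877). Of 6 spindle assembly genes 2 rose: Hmmr, a spindle pole protein, had 12.2, 6.65 and 13.6 CPM with vehicle and 17.6, 22.9 and 18.4 CPM with YEXX-2A (log2 fold change 0.85, SE 0.23, edgeR adjusted p = 0.0194; 0.61 without vehicle replicate 2, adjusted p = 0.00491). Kif11, the kinesin that pushes spindle poles apart, rose by 0.72, while Tpx2 (0.24) and the microtubule depolymerase Kif2c (0.10) were not called. Nusap1 (0.64) and Dlgap5 (0.49) were not called with all libraries and were called without vehicle replicate 2, at the smaller values of 0.36 and 0.27.

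The checkpoint and destruction genes divided. The checkpoint kinases Ttk (0.70) and Bub1 (0.62) rose with YEXX-2A on the log2 scale. Without vehicle replicate 2 they were at 0.48 and 0.38, both called, and the call of Bub1 did not hold in 6 of the 9 fits that left out a library. Bub1b (0.10), Ube2c (-0.07) and Cdc20 (-0.23) were not called. Among entry genes, Plk1, the kinase that promotes mitotic entry and spindle assembly, fell: it had 146.7, 165.5 and 136.9 CPM with vehicle and 120.7, 116.6 and 125.9 CPM with YEXX-2A. The groups did not overlap, and the log2 fold change was -0.31 (SE 0.08, edgeR adjusted p = 0.0176; -0.23 without vehicle replicate 2, adjusted p = 0.00435). Cdk1 had 128.1, 124.4 and 135.1 CPM with vehicle and 132.5, 137.3 and 148.1 CPM with YEXX-2A, an overlapping pair of groups that was not called (log2 fold change 0.11, 95% interval -0.04 to 0.25). Ccnb1, the mitotic cyclin B1, had 69.1, 59.7 and 71.4 CPM with vehicle and 76.4, 75.7 and 81.1 CPM with YEXX-2A, and its rise of 0.22 (edgeR adjusted p = 0.0484) did not hold in 8 of the 9 fits that left out a library, among them the fit without vehicle replicate 2 (0.14, adjusted p = 0.0562). Ccna2, cyclin A2, had 57.3, 37.8 and 57.6 CPM with vehicle and 67.2, 69.9 and 61.4 CPM with YEXX-2A. It was called without vehicle replicate 2 (0.21, adjusted p = 0.0283) and not with it (0.38, edgeR adjusted p = 0.0558).

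In cytokinesis, Kif23, a motor of the centralspindlin complex, rose by 0.53 with YEXX-2A (edgeR adjusted p = 0.0387), with 0.35 without vehicle replicate 2 (adjusted p = 0.0442). Its groups overlapped, and the call did not hold in 6 of the 9 fits that left out a library. Prc1 (0.46), which bundles midzone microtubules, was called without vehicle replicate 2 (0.25, adjusted p = 0.0306) and not with it, and Anln (0.14), Kif20a (-0.03) and Racgap1 (-0.16) were not called. None of the passenger complex genes Aurkb (-0.01), Birc5 (0.05) and Cdca8 (-0.22) was called. Of the 14 rises, those of Ncapg and Smc2 alone were called in all 9 fits that each left out a library. Without YEXX-2A replicate 2, which had the highest value of its group for 22 of 33 genes, 2 genes rose and none fell, and without YEXX-2A replicate 1, 6 rose. Those fits called 1044 and 1459 of all tested genes, against 4145 with all libraries, so the loss of calls was not limited to the 33 genes. Without vehicle replicate 1 or 3, 2 and 4 genes fell, with 3896 and 5308 of all tested genes called. With the vehicle and YEXX-2A libraries alone 4 rose (Ncapg, Smc2, Smc4 and Cenpe) and none fell, with 1408 of all tested genes called.

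**Figure D2:**
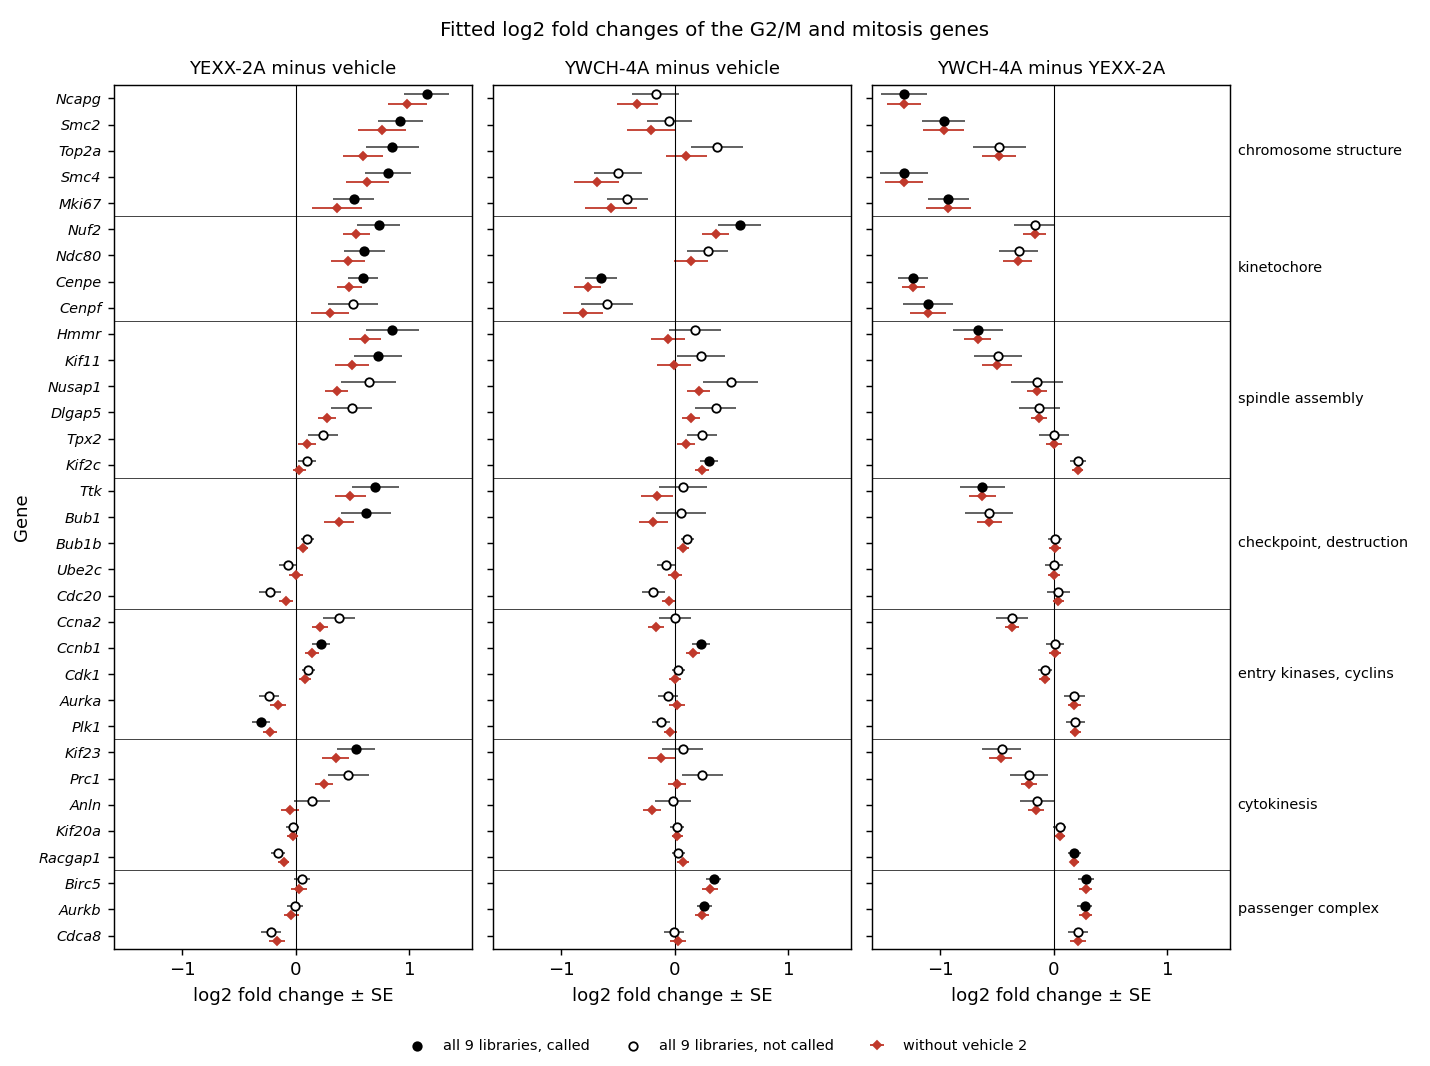
Fitted log2 fold changes with standard errors for 33 genes (rows) in 3 comparisons (panels), as black circles for all 9 libraries (filled where the edgeR adjusted p was under 0.05) and red diamonds without vehicle replicate 2. With YEXX-2A, Ncapg lies farthest right at 1.15, and in the panel between the compounds Ncapg and Smc4 lie farthest left at -1.32.

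With YWCH-4A, 2 passenger complex genes, a spindle kinesin, a kinetochore gene and cyclin B1 were higher than with vehicle and another kinetochore gene was lower. Of 33 genes 5 rose and 1 fell (15.2% and 3.03%), against 15.7% and 14.9% of all tested genes, so the share of rises was near the background. The median log2 fold change was 0.05, against 0.03 over all tested genes. Without vehicle replicate 2, 5 rose and 3 fell (15.2% and 9.09%, against 20.3% and 19.1% of all tested genes), all 5 rises were kept, and the median was 0.00. All YWCH-4A libraries lay above all vehicle libraries for 8 genes and below them for 2, against 24.9% and 21% of all tested genes. Without YWCH-4A replicate 1 or 2 the rises numbered 2, and without YWCH-4A replicate 3 or YEXX-2A replicate 1 or 3 they numbered 3. Over all tested genes these fits called from 2450 to 3243, against 3516 with all libraries. Without YEXX-2A replicate 2, 2 genes fell, with 3139 of all tested genes called.

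In the passenger complex, which corrects faulty kinetochore attachments, 2 of 3 genes rose with YWCH-4A. Birc5, which encodes survivin, had 50.7, 47.4 and 48.8 CPM with vehicle and 61.6, 61.2 and 62.8 CPM with YWCH-4A. The groups did not overlap, and the log2 fold change was 0.34 (SE 0.07, edgeR adjusted p = 0.00544; 0.31 without vehicle replicate 2, adjusted p = 0.00109). Aurkb, its kinase, had 66.7, 61.7 and 63.6 CPM with vehicle and 82.2, 75.3 and 72.5 CPM with YWCH-4A, again without overlap (a log2 fold change of 0.26, SE 0.07, and an edgeR adjusted p = 0.0183). Cdca8, the borealin gene of the same complex, was at -0.01 and was not called. Kif2c, which Aurora B regulates at kinetochores, had 47.6, 42.2 and 49.8 CPM with vehicle and 58.4, 57.7 and 56.4 CPM with YWCH-4A (SE 0.08 on a log2 fold change of 0.30, edgeR adjusted p = 0.0109). The rises of Birc5 and Kif2c were called in each of the 9 fits without a library, and leaving out YWCH-4A replicate 1 or 2 ended that of Aurkb (edgeR adjusted p = 0.103 and 0.0550).

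The kinetochore genes went in both directions with YWCH-4A. Cenpe fell: it had 15.2, 10.8 and 13.3 CPM with vehicle and 8.87, 8.66 and 7.50 CPM with YWCH-4A, without overlap (a log2 fold change of -0.65, SE 0.14, edgeR adjusted p = 0.00486; -0.77 without vehicle replicate 2, adjusted p = 4.17e-05). Cenpf, which loads onto kinetochores in G2, had 16.5, 9.51 and 16.0 CPM with vehicle and 10.6, 8.61 and 8.50 CPM with YWCH-4A. It was called without vehicle replicate 2 (-0.81, adjusted p = 0.00392) and not with it (-0.60, edgeR adjusted p = 0.0669). Nuf2, with 23.4, 26.4 and 21.8 CPM, rose by 0.57 (SE 0.19, edgeR adjusted p = 0.0411) and by 0.36 without vehicle replicate 2, so members of 1 structure moved apart. That rise was lost when any YWCH-4A library was left out (adjusted p from 0.0618 to 0.142) and without YEXX-2A replicate 1 or 3. The fall of Cenpe was called in each of the 9 fits without a library, and on log2(FPKM + 1) it was at -0.27 and not called (limma adjusted p = 0.0666).

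Ccnb1 had 80.7, 77.5 and 76.4 CPM with YWCH-4A, all above vehicle, and rose by 0.23 (edgeR adjusted p = 0.0455; 0.16 without vehicle replicate 2, adjusted p = 0.0353). The rise of Ccnb1 was close to the threshold and was lost in 7 of the 9 fits that left out a library. With YWCH-4A, Cdk1 had 136.2, 130.2 and 128.4 CPM (log2 fold change 0.03) and Ccna2 had 52.9, 53.1 and 47.2 CPM (0.00). Plk1 had 145.6, 134.8 and 132.6 CPM (-0.12). Cdk1, Ccna2 and Plk1 were not called. No chromosome structure gene was called with all libraries. Smc4 had 14.9, 14.3 and 11.6 CPM with YWCH-4A, and fell without vehicle replicate 2 (-0.69, adjusted p = 0.0225) but was not called with it (-0.50, edgeR adjusted p = 0.0964). Mki67, with 88.2, 80.3 and 67.6 CPM, was at -0.42 and Top2a, with 155.2, 165.4 and 142.0 CPM, at 0.37, neither called. The authors' FPKM carry no correction for shifts in composition. With log2(FPKM + 1) the median of all tested genes was 0.18, and 78.2% of all called genes were higher in place of 51.2%. In that setting 10 of the 33 genes rose and none fell, with 4735 of all tested genes called in place of 3516.

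**Figure D3:**
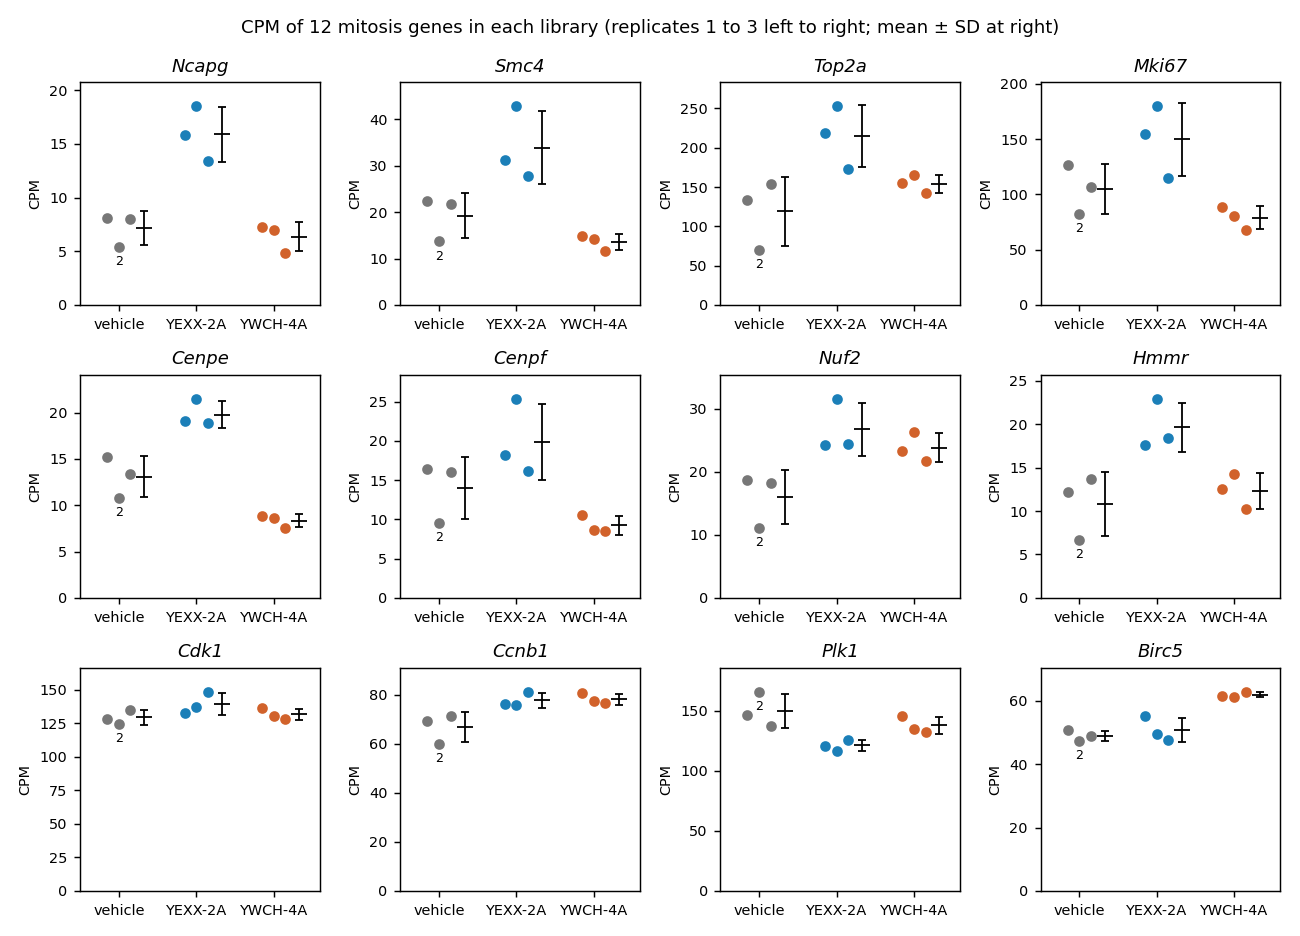
CPM in each library for 12 genes, with replicates 1 to 3 from left to right in each group, vehicle replicate 2 marked, and the mean with its standard deviation (n = 3) at the right of each group. Ncapg, Smc4, Cenpe and Cenpf are lower in every YWCH-4A library than in any YEXX-2A library. Against vehicle, Cenpe alone of these was called with YWCH-4A, and Cenpf was not called with YEXX-2A. Cdk1 stays between 124.4 and 148.1 CPM in all libraries.

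The compounds were then compared with each other, a contrast whose fold changes do not use the vehicle libraries but whose spread does. With YWCH-4A 8 of 33 genes were lower than with YEXX-2A and 3 were higher (24.2% and 9.09%), against 15.1% and 16.2% of all tested genes. All YWCH-4A libraries lay below all YEXX-2A libraries for 14 genes and above them for 7, against 29.1% and 29.9% of all tested genes. The lower genes included 4 of 5 chromosome structure genes. Ncapg, at 7.272, 7.004 and 4.815 CPM with YWCH-4A, differed by -1.32 (SE 0.20, edgeR adjusted p = 0.000591) and Smc4 by -1.32 (SE 0.21, edgeR adjusted p = 0.000797). Smc2, at 18.4, 20.8 and 16.8 CPM with YWCH-4A, differed by -0.97 and Mki67 by -0.93. The condensin ATPases and Ki-67 were thus lower in every YWCH-4A library than in any YEXX-2A library. Top2a was at -0.48 and was not called (95% interval -0.99 to 0.03), and without vehicle replicate 2 it was called at the same value (adjusted p = 0.0434), so that all 5 chromosome structure genes were then lower.

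At the kinetochore Cenpe, with 19.1, 21.5 and 18.9 CPM under YEXX-2A, differed by -1.24 between the compounds (SE 0.13, edgeR adjusted p = 5.89e-05). Cenpf, with 18.1, 25.3 and 16.1 CPM under YEXX-2A, differed by -1.11 (SE 0.22, edgeR adjusted p = 0.00356). Nuf2 (-0.17) and Ndc80 (-0.31) were not called, and without vehicle replicate 2 Ndc80 was (-0.32, adjusted p = 0.0487). Hmmr, with 12.5, 14.3 and 10.2 CPM under YWCH-4A, differed by -0.67 and Ttk by -0.63. The higher genes were Birc5 (0.28), Aurkb (0.27) and Racgap1, a GTPase activator of cytokinesis. Under YEXX-2A Birc5 had 55.1, 49.6 and 47.6 CPM and Aurkb had 63.6, 60.9 and 66.1 CPM. Racgap1 had 151.1, 149.1 and 155.6 CPM with YEXX-2A and 173.3, 169.2 and 174.7 CPM with YWCH-4A, a difference of 0.18 (SE 0.06, edgeR adjusted p = 0.0390).

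Among genes not called between the compounds, Cdk1 was at -0.08 (95% interval -0.22 to 0.06), Ccnb1 at 0.01 (-0.16 to 0.18) and Ube2c at 0.00 (-0.18 to 0.17). Without vehicle replicate 2, which here changes the estimated spread and hardly the values, 15 genes were lower and 7 higher, against 26.1% and 25.4% of all tested genes. Cenpe, Cenpf, Ncapg, Smc2, Smc4 and Mki67 were called lower in each of the 9 fits that left out a library, and none of the 3 higher genes was. Without YEXX-2A replicate 2 none of the 33 genes was called higher, and without YEXX-2A replicate 3 or YWCH-4A replicate 1 or 3 there was 1. Over all tested genes these fits called from 2225 to 3018, against 3593 with all libraries.

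The genes with the largest differences between the compounds were among the longer ones. A length was implied for each gene by its deposited count and FPKM, and ran from 0.77 kb for Ube2c to 10.1 kb for Cenpf with a median of 2.85 kb. Across the 33 genes, log2 length and the log2 difference between YWCH-4A and YEXX-2A had a Pearson r of -0.68 (Spearman rho -0.67), against -0.10 (rho -0.11) across 11241 tested genes with a length. The 17 shorter genes had a median difference of 0.00 and the 16 longer genes of -0.53. For vehicle replicate 2 against replicates 1 and 3 the r was -0.49 (-0.12 across all genes), with medians of -0.20 and -0.67. For YEXX-2A against vehicle replicates 1 and 3 it was 0.46 (-0.01 across all genes). For YWCH-4A against the same vehicle libraries it was -0.67 (-0.10 across all genes), with medians of 0.10 and -0.17. For YEXX-2A replicate 2 against replicates 1 and 3 of its group it was 0.67 (0.04 across all genes). In these 33 genes, library differences within a group thus ran along the same length order as differences between groups. In 92 other mitosis genes, listed in the next paragraph, the r was -0.34 for YWCH-4A against YEXX-2A. Against vehicle replicates 1 and 3 it was 0.15 for YEXX-2A and -0.37 for YWCH-4A. Within groups it was -0.13 there for vehicle replicate 2 and 0.2 for YEXX-2A replicate 2. Each of these values was weaker than in the 33 genes, between groups as well as within them. In 53 DNA replication genes the within-group values were -0.02 and 0.03. The points share their libraries and may share base composition, and the part of length in the calls was not tested.

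**Figure D4:**
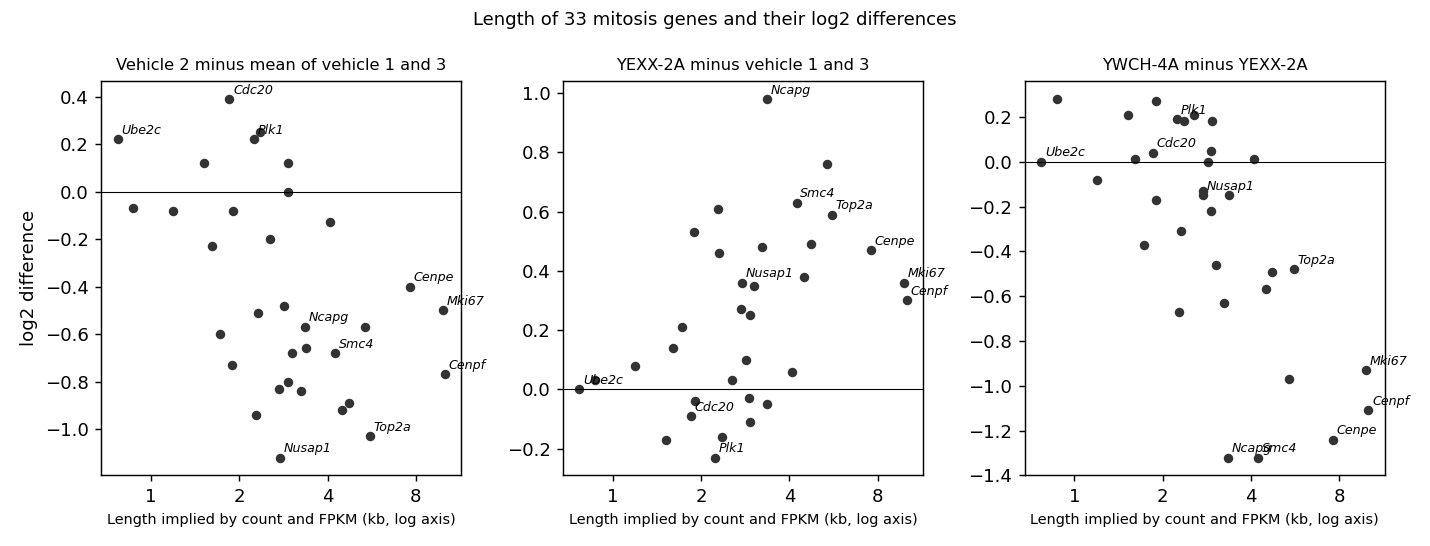
Implied length (kb, log axis) against the log2 difference for the 33 genes, for vehicle replicate 2 against replicates 1 and 3 (left), YEXX-2A against vehicle replicates 1 and 3 (middle) and YWCH-4A against YEXX-2A (right). Cenpf, Mki67 and Cenpe, the longest genes, lie at -1.11, -0.93 and -1.24 in the right panel, and Ube2c, the shortest, at 0.00.

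Other genes of mitosis were called in both directions with YEXX-2A, at shares near those of all tested genes. Of 93 further G2/M and mitosis genes, 92 gene models were tested. Of these, 20 rose and 15 fell with YEXX-2A (21.7% and 16.3%, against 17.6% and 18.5% of all tested genes, median 0.17). Without vehicle replicate 2, 14 rose and 14 fell (15.2% each, against 17.5% and 17.6% of all tested genes, median 0.07). Cenpi, a centromere protein, rose by 1.03, while Gtse1 (-0.38), the cyclin F gene Ccnf (-0.43) and the kinesin gene Kif18b (-0.40) fell. With YWCH-4A 14 rose and 3 fell (15.2% and 3.26%, against 15.7% and 14.9% of all tested genes, median 0.15). Among them, Hmgb2 (0.73) and the spindle and kinetochore gene Ska2 (0.81) rose and Pimreg (-0.47) fell. Without vehicle replicate 2, 22 rose and 9 fell (23.9% and 9.78%, against 20.3% and 19.1% of all tested genes, median 0.06). Between the compounds the securin gene Pttg1 (0.66) and Spc24 (0.51), which encodes another Ndc80 complex subunit, were higher with YWCH-4A, and Knl1, a large kinetochore scaffold, was lower (-1.33). Of 15 subunits and activators of the anaphase-promoting complex, 3 rose and 3 fell with YEXX-2A (20% in each direction, near the shares of all tested genes), with Cdc27 at 0.88 and Anapc2 at -0.51. In this list 1 rose and 2 fell with YWCH-4A (6.67% and 13.3%, against 15.7% and 14.9% of all tested genes), with Cdc26 at 0.67 and Anapc1 at -0.36.

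Of 21 tested regulators of the program, 3 rose and 1 fell with each compound (14.3% and 4.76%, under the shares of all tested genes). Without vehicle replicate 2, with 22 tested, 3 rose and 1 fell with YEXX-2A (13.6% and 4.55%, against 17.5% and 17.6% of all tested genes). In that fit 5 rose and 1 fell with YWCH-4A (22.7% and 4.55%, against 20.3% and 19.1%). Mybl2, which encodes B-Myb, fell with YEXX-2A (-0.56, edgeR adjusted p = 0.00328) and with YWCH-4A (-0.50, edgeR adjusted p = 0.00188). Tfdp2, the E2F partner gene, rose with both (0.97 and 0.90), as did Rbl2, which encodes the p130 subunit of DREAM (0.44 and 0.49), and E2f6 (0.32 and 0.41). Both comparisons share the vehicle libraries. Foxm1 was not called with either (-0.10 and 0.11), though with YWCH-4A it was called without vehicle replicate 2 (0.18, adjusted p = 0.0197). Between the compounds, Rb1 was lower with YWCH-4A (-0.57) and E2f8 higher (0.37).

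Among cell cycle inhibitors, Cdkn1a, which encodes p21, fell with both compounds (-0.33 for each, edgeR adjusted p = 0.0172 with YEXX-2A and 0.0124 with YWCH-4A). Cdkn1b, which encodes p27, was at 0.58 with YEXX-2A (edgeR adjusted p = 0.0507) and at -0.07 with YWCH-4A, and without vehicle replicate 2 it was called in both, higher with YEXX-2A (0.33) and lower with YWCH-4A (-0.32). Of 8 tested G1 cyclins and kinases, Ccnd3 (-0.35) and Cdk4 (-0.24) fell with YEXX-2A along with Ccnd1 (-0.15), and Ccne2 rose (0.88). With YWCH-4A, Cdk4 (-0.22) and Ccnd3 (-0.28) fell and none rose. Of 53 DNA replication genes, 13 rose and 9 fell with YEXX-2A (24.5% and 17%, against 17.6% and 18.5% of all tested genes; median 0.06), with Pola1 at 1.11, Pcna at 0.62 and Cdt1 at -0.52. With YWCH-4A 17 rose and none fell (32.1% and 0%, against 15.7% and 14.9% of all tested genes, median 0.22), led by Gins1 (0.68) and Dut (0.58). Without vehicle replicate 2, 20 rose and 0 fell (37.7% and 0%, against 20.3% and 19.1% of all tested genes, median 0.16). Of 13 mitochondrially encoded genes, which also read on RNA handling, 8 rose and none fell with YEXX-2A (61.5% and 0%, against 17.6% and 18.5% of all tested genes, median 0.60). With YWCH-4A none of these genes rose and 1 fell (0% and 7.69%, against 15.7% and 14.9%), and 6 fell without vehicle replicate 2 (46.2%, against 19.1%). Their summed level was 15870 CPM in vehicle replicate 2 and 19550 and 21290 CPM in the other vehicle libraries, and their part in the results on mitosis genes was not tested.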

How the data were processed

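Libraries were poly(A)-selected with oligo(dT), per the labels' protocols, and strand is not stated, so overlapping genes cannot be told apart. The submitters' processing notes name StringTie 1.3.1, RSEM, edgeR and DESeq2 without their roles. Aligner, genome build and gene models are not given in the sources used here. The authors deposited, per the file headers, 1 estimated count for each gene in each library, and 8.87% of those above 0 were not whole. The authors also deposited FPKM values, which scale by gene length and library size. Totals ran from 13675880 to 21923706 estimated counts. Counts were rounded. After the filterByExpr filter (minimum count 10, edgeR 4.0.16) 11473 genes were tested, with TMM scaling. A robust edgeR quasi-likelihood model of the 9 libraries, with a term for group alone, gave each comparison, two-sided, with Benjamini-Hochberg adjustment over all tested genes and a threshold of 0.05. The groups shared 1 estimate of spread although their spread differed. Each standard error is the log2 fold change over the root of the F statistic, and 95% intervals use the t quantile of the fit. The test was checked on counts simulated with equal spread in all groups and no deviating library, so the check does not cover the unequal spread of these libraries. Values in every library are given for Cdk1, Ccnb1, Ccna2, Plk1 and Mki67. Per comparison, values in the compared libraries are given for the 6 largest rises and 4 largest falls among called genes. Context lists are named by their smallest p-values, up to 4 per list and comparison. Ndc80 subunits, Nusap1, Cdc20 and other genes outside this rule were chosen after their values were seen. The 33 genes and all lists were chosen with earlier results of these data known, so no list test is given. Of 254 list entries 249 matched a gene. Alternatives were other size factors, filters, tests (DESeq2 1.42.0, limma 3.58.1), log2(FPKM + 1 or 0.1), the compared groups alone, a replicate block and each library left out. Computations ran in R 4.3.3.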

Additional observations from a re-analysis of the deposited data

How the results depend on the processing

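No call of the 33 genes turned its direction in any of 1881 results over 19 alternatives, and 74 values that were called on neither side changed sign. Ncapg and Smc2 (higher with YEXX-2A), Birc5 and Kif2c (higher with YWCH-4A) and Cenpe, Cenpf, Ncapg, Smc2, Smc4 and Mki67 (lower with YWCH-4A than with YEXX-2A) kept their calls in all 19. The fall of Cenpe with YWCH-4A kept its call in all but the FPKM settings. For YEXX-2A against vehicle, the compared groups alone gave 4 rises and 0 falls in place of 14 and 1. They called 1408 of all tested genes in place of 4145. DESeq2 gave 3 falls, with 4636 of all tested genes called. For YWCH-4A against vehicle, the main fit called 3516 of all tested genes. DESeq2 gave 4 falls (3654 of all tested genes called) and the compared groups alone 2 rises (2749 called). With log2(FPKM + 1) there were 10 rises and 0 falls (4735 called). With log2(FPKM + 0.1) there were 9 rises and 0 falls (4653 called), with a median of 0.27 (0.21 over all tested genes). Between the compounds, both FPKM settings gave 7 genes higher. They called 4129 (FPKM + 1) and 4010 (FPKM + 0.1) of all tested genes in place of 3593. The compared groups alone gave 7 higher and 13 lower, with 5903 of all tested genes called. On log2(FPKM + 1) 62.3%, 78.2% and 72.6% of called genes were higher in the 3 comparisons in turn, against 48.8%, 51.2% and 51.7%. The cause was not tested, except that the compared groups alone set their own spread. With each library left out, rises ranged from 2 to 17, falls from 0 to 4, the median from 0.25 to 0.56 and all calls from 1044 to 5308 for YEXX-2A against vehicle. For YWCH-4A against vehicle the ranges were 2 to 6, 1 to 3, 0.00 to 0.12 and 2450 to 4588. Between the compounds they were 0 to 7 higher, 6 to 15 lower, -0.23 to -0.07 and 2225 to 6001. Same-numbered libraries of different groups did not deviate together (correlations from -0.27 to 0.08, and from -0.20 to 0.23 for different numbers). With so few libraries per group this cannot show whether the numbers pair the samples, and the labels do not say. With a replicate block 4 genes rose and 0 fell with YEXX-2A, with 1931 of all tested genes called. With YWCH-4A 3 rose in that fit, with 2787 of all tested genes called. Genes with the lowest counts, such as Ncapg (4.815 to 18.51 CPM), are the most exposed to counting error, whose size was not computed.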
